A study of Mus with 6 samples.

Results

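The genes described here encode 3 Toll-like receptors (Tlr2, Tlr3 and Tlr4), the co-receptor CD14 (Cd14), the receptor for advanced glycation end products (Ager) and the adaptor MyD88 (Myd88). These 6 genes were picked by name and Ensembl identifier, out of 55421 genes counted, and all 6 passed the low-count filter that left 16810 genes to test. They were followed in lens epithelial cells (LECs) of wildtype C57BL/6 mice, 2 months old by the sample labels and 3 to 5 months old by the study's methods, whose lens fiber cell mass had been surgically removed as a model of cataract surgery. The LECs stayed on the lens capsule inside the eye and were taken at once (0 h post cataract surgery, PCS) or after 6 h (6 h PCS), with no other treatment. Each time point had 3 RNAseq libraries, each made from 5 pooled capsules, so the spread given below is between pools and not between mice. Capsules hold everything that adheres to them, and in such bulk samples fewer cells of a type and less RNA per cell cannot be told apart.

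Toll-like receptors recognize microbial products and also molecules released by injured cells, which are called danger- or damage-associated molecular patterns (DAMPs). TLR4 and TLR2 sit at the cell surface, and both are helped by CD14, a membrane-anchored or soluble protein that binds lipopolysaccharide and other ligands and hands them to the receptor. TLR3 binds double-stranded RNA in endosomes. MyD88 carries the signal of TLR2 and TLR4, and of interleukin 1 receptors, towards NF-kB and MAPK, whereas TLR3 signals through a different adaptor, TRIF. RAGE, the product of Ager, binds HMGB1 and S100 proteins. Crystallins set free when lens fibers are damaged have been named as possible DAMPs. The levels of these receptors at once and 6 h after fiber cell removal bear on whether the epithelium is equipped to sense them.

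The libraries held between 18039974 and 24701039 counts on genes. The lens epithelial transcription factors Pax6 and Foxe3 were detected in all of them, Pax6 at 329 to 671 and Foxe3 at 79.0 to 111 CPM. Levels are given as CPM, counts per 1000000 after TMM scaling of the libraries, changes as log2 fold changes of 6 h over 0 h PCS with their standard error (SE), and FDR is the Benjamini-Hochberg adjusted p across all tested genes in the quasi-likelihood F-test of edgeR. A gene was called differentially expressed (DEG) when its FDR did not exceed 0.05 and it changed more than 2-fold. Libraries of the same time point differed from each other by more than counting error, and no library was a duplicate of another. One eye of a mouse could supply a 0 h capsule and the other eye a 6 h capsule, and the labels do not say which pools shared mice, so p-values measure the spread between these pools only.

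Of the 6 genes, Cd14 and Myd88 were upregulated DEGs at 6 h PCS, and none was downregulated. Among all tested genes, 4.53% were upregulated and 0.821% downregulated DEGs. For the 0 downregulated calls from edgeR's quasi-likelihood test, 0 members lower at 6 h PCS had an unadjusted p under 0.05, and 0 were called by DESeq2 or by edgeR's exact test. The co-receptor and the adaptor therefore moved in one direction, while the 4 receptor genes gave fold changes near 1 or below it and no call.

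**Figure D1:**
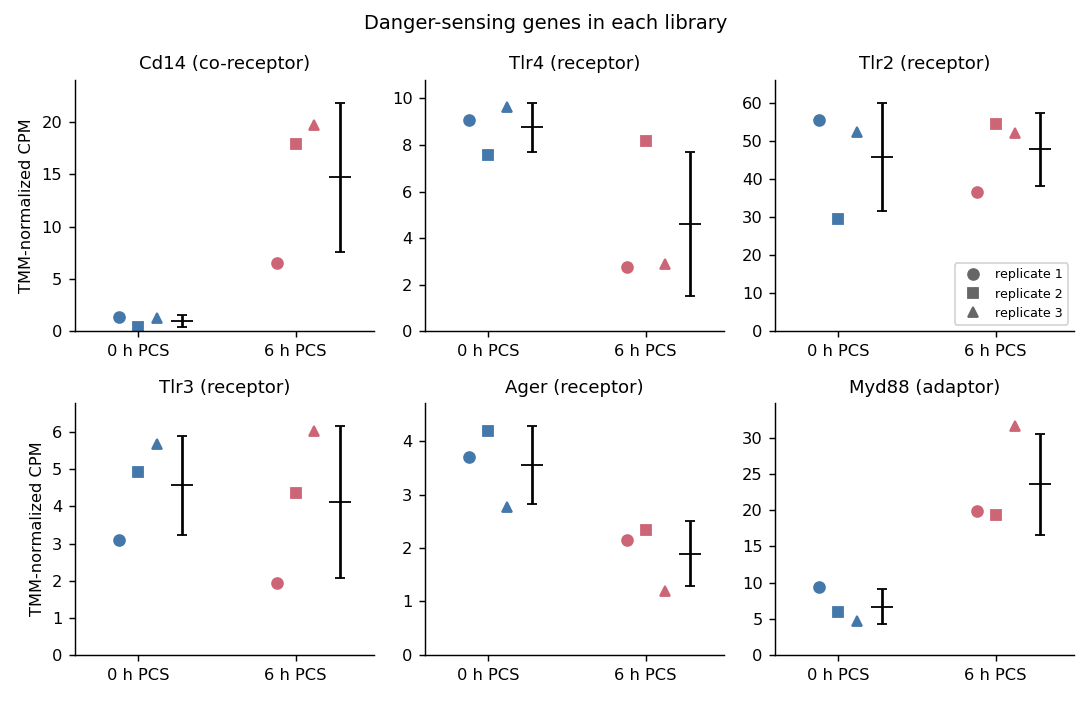
TMM-normalized CPM (linear axes from 0) of the 6 genes in each of the 3 libraries at 0 h PCS (blue) and 6 h PCS (red), with the marker shape giving the replicate number and the black bar the mean with its SD. All 6 h libraries of Cd14 and Myd88 lie above all 0 h libraries, those of Ager lie below, and in Tlr4 one 6 h library (replicate 2, 8.18 CPM) lies among the 0 h libraries.

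The co-receptor gene Cd14 (ENSMUSG00000051439, chromosome 18 of GRCm38, 36725064 to 36726815) had only 31, 10 and 29 counts in replicates 1 to 3 at 0 h PCS and 97, 399 and 327 counts at 6 h PCS. On the TMM scale these were 1.33, 0.364 and 1.25 CPM at 0 h PCS, against 6.51, 17.9 and 19.7 CPM at 6 h PCS. The groups did not overlap, and the lowest 6 h library, replicate 1, was still well above the highest 0 h library. Groups separated upwards in this way were seen in 15.3% of all tested genes. Mean Cd14 went up from 0.983 ± 0.537 CPM to 14.7 ± 7.16 CPM (SD, n = 3), and its log2 fold change was 3.91 (SE 0.570, 95% interval 2.62 to 5.20, edgeR FDR = 0.00409). As a fold change this is 15.1, with an interval from 6.16 to 36.8. Cd14 remained a DEG in each fit that left out 1 library, with log2 fold changes from 3.50 (without 0 h replicate 2, its lowest library) to 4.26 (without 6 h replicate 1) and an edgeR FDR of 0.0202 or less.

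Tlr4 (ENSMUSG00000039005, chromosome 4, 66827551 to 66846581), which encodes the receptor that CD14 serves in lipopolysaccharide sensing, went the other way in part of the libraries. It was at 9.08, 7.58 and 9.62 CPM at 0 h PCS, a tight group with a coefficient of variation of 12.1%. At 6 h PCS it was at 2.75, 8.18 and 2.89 CPM, so replicates 1 and 3 fell far below every 0 h library and replicate 2 was within the 0 h range. The log2 fold change was −0.91 (SE 0.419, 95% interval −1.85 to 0.023, edgeR FDR = 0.228), which is not a call. That outcome turned on 6 h replicate 2: without it the log2 fold change was −1.65 (edgeR FDR = 0.0238) and Tlr4 was a downregulated DEG, whereas the other 5 fits without 1 library gave values from −1.01 to −0.65 and no call. In the same library Cd14 was the middle value of the 6 h group and Myd88 the lowest. Its summed leukocyte markers (55.0 CPM) were close to those of 6 h replicate 3 (54.9 CPM), in which Tlr4 was low. What sets the library apart for Tlr4 was not tested.

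Tlr2 (ENSMUSG00000027995, chromosome 3, 83836272 to 83841824), the receptor for bacterial lipopeptides and several DAMPs, had 1293, 808 and 1215 counts at 0 h PCS and 547, 1212 and 866 at 6 h PCS. Its levels were 55.6, 29.4 and 52.4 CPM at 0 h PCS and 36.7, 54.5 and 52.2 CPM at 6 h PCS. The groups overlapped fully, and in each group 1 library was low, replicate 2 at 0 h PCS and replicate 1 at 6 h PCS. The log2 fold change of 0.06 (SE 0.249, edgeR FDR = 0.912) had a 95% interval from −0.50 to 0.62, so a fold change above 1.54 or below 0.708 lies outside it. The sign of this small difference was not stable: it was −0.24 with scaling on library size alone and lay between −0.18 and 0.22 over the fits without 1 library.

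Tlr3 (ENSMUSG00000031639, chromosome 8, 45395665 to 45411075), the endosomal receptor, was at 3.10, 4.92 and 5.70 CPM at 0 h PCS and at 1.95, 4.36 and 6.02 CPM at 6 h PCS. Replicate 1 was the lowest library of both groups, and the groups overlapped. The log2 fold change was −0.15 (SE 0.442, edgeR FDR = 0.876). Its 95% interval ran from −1.14 to 0.84, wide enough to hold a change of 2-fold downwards. The libraries held 29 to 135 Tlr3 counts, and their coefficient of variation was 29.2% at 0 h PCS and 49.9% at 6 h PCS.

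Ager (ENSMUSG00000015452, chromosome 17, 34597460 to 34600937) was at 3.70, 4.19 and 2.76 CPM at 0 h PCS and at 2.15, 2.34 and 1.20 CPM at 6 h PCS. All 3 libraries at 6 h PCS lay below all 3 at 0 h PCS, as did those of 15.3% of tested genes. The log2 fold change of −0.90 (SE 0.425, 95% interval −1.85 to 0.047, edgeR FDR = 0.241) was not a call, and it stayed negative, between −1.11 and −0.66, in every fit without 1 library. Ager had 20 to 115 counts per library, and its neighbours Pbx2 and Rnf5 lie 59 and 161 bases away. None of the 6 genes overlaps another gene of the RefSeq table, and the strand setting of the counting is not given in the sources used here.

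Myd88 (ENSMUSG00000032508, chromosome 9, 119335934 to 119340018), the adaptor shared by most Toll-like receptors, had 217, 162 and 110 counts at 0 h PCS and 296, 429 and 525 counts at 6 h PCS. Its levels were 9.34, 5.90 and 4.75 CPM at 0 h PCS and 19.9, 19.3 and 31.6 CPM at 6 h PCS. Every 6 h library was above every 0 h library, as in 15.3% of all tested genes. Mean Myd88 went up from 6.66 ± 2.39 CPM to 23.6 ± 6.96 CPM (SD, n = 3), and its log2 fold change was 1.82 (SE 0.302, 95% interval 1.15 to 2.50, edgeR FDR = 0.00597). This is 3.54-fold, with an interval from 2.22 to 5.65. Without 1 library the log2 fold change lay between 1.55 (6 h replicate 3, its highest library) and 2.14 (0 h replicate 1, the highest at 0 h PCS), and Myd88 was a DEG in all 6 of these fits, with an edgeR FDR of 0.0248 or less.

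**Figure D2:**
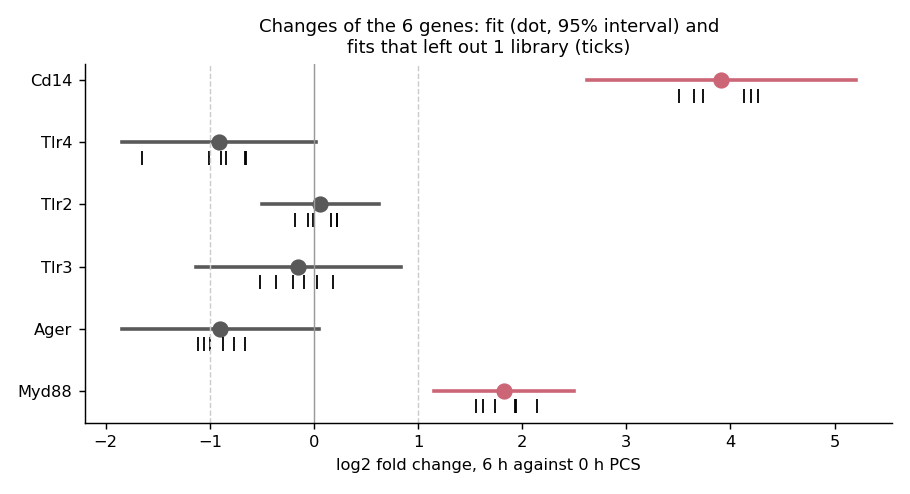
Log2 fold change of each gene at 6 h against 0 h PCS from the edgeR fit (dot) with its 95% interval (line), in red for DEGs, and below it the values of the 6 fits that each left out 1 library (ticks). Dashed lines mark a 2-fold change. The intervals of Cd14 (2.62 to 5.20) and Myd88 (1.15 to 2.50) lie above 1 on the log2 scale, and the outlying tick of Tlr4 at −1.65 is the fit without 6 h replicate 2.

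The balance between co-receptor and receptor was read from the counts within each library, where library size and scaling cancel. For every Tlr4 count there were 0.147, 0.0481 and 0.130 Cd14 counts at 0 h PCS, and 2.37, 2.19 and 6.81 at 6 h PCS. Cd14 had thus fewer counts than Tlr4 in all 3 libraries at 0 h PCS and more in all 3 at 6 h PCS. The log2 ratio changed by 5.08, from −3.36 ± 0.884 to 1.71 ± 0.914 (SD, n = 3), which is 33.8-fold. Against Tlr2, Cd14 had 0.0240, 0.0124 and 0.0239 counts per Tlr2 count at 0 h PCS and 0.177, 0.329 and 0.378 at 6 h PCS, a 14.6-fold change, and it stayed below Tlr2 in counts throughout. Ratios of counts between 2 genes include their lengths, but changes of a ratio do not.

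Myd88 counts per Tlr4 count were 1.03, 0.779 and 0.493 at 0 h PCS and 7.22, 2.36 and 10.9 at 6 h PCS, a 7.78-fold change. Per Tlr2 count they were 0.168, 0.200 and 0.0905 at 0 h PCS and 0.541, 0.354 and 0.606 at 6 h PCS, a 3.37-fold change. The ratios to Tlr3 and Ager moved the same way, by 18.6-fold and 29.9-fold for Cd14 and by 4.28-fold and 6.90-fold for Myd88. For Cd14 these 2 ratios were lowest in 0 h replicate 2 (0.0741 and 0.0870), which widens the change. Only the Cd14 to Tlr4 ratio was rerun without 1 library. All 8 ratios were higher in each 6 h library than in any 0 h library. Cd14 and Myd88 were separated upwards on their own, as were 15.3% of all tested genes. The separation of the ratios therefore largely restates the rise of these 2 genes. The share of separated ratios among other gene pairs was not computed. Each gave p = 0.10 in an exact two-sided permutation test over the libraries (0.10 after adjustment over the 8 ratios), the smallest p that 3 against 3 libraries can give. The 8 ratios share their genes and libraries and are not independent of each other.

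**Figure D3:**
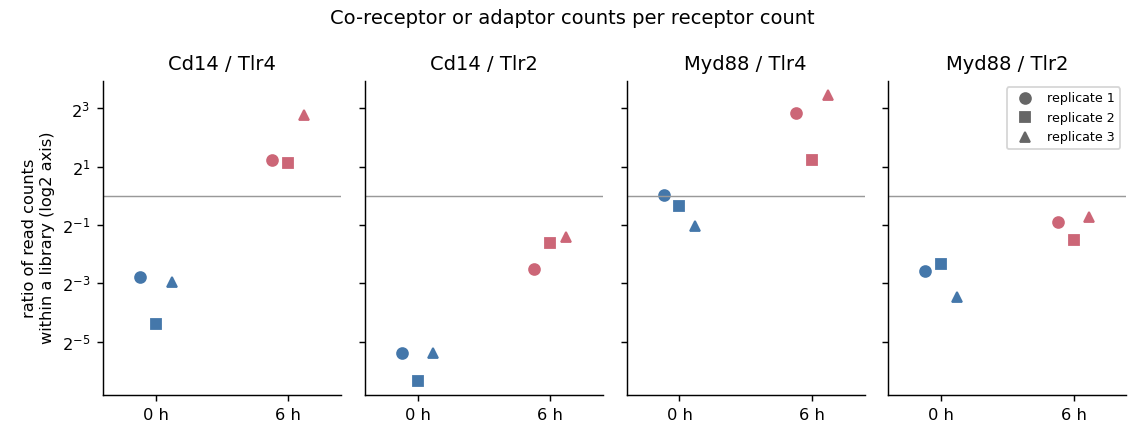
Ratio of Cd14 or Myd88 counts to Tlr4 or Tlr2 counts within each library (log2 axis), at 0 h PCS (blue) and 6 h PCS (red), with the marker shape for the replicate number and a line at equal counts. The Cd14 to Tlr4 ratio crosses this line, from 0.0481 to 0.147 at 0 h PCS to 2.19 to 6.81 at 6 h PCS.

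Levels of different genes can be compared only per length. Exon lengths were at hand for Cd14 and Myd88, and for the other genes the length of the whole annotated gene was used, which gives a lower bound on the level because exons cannot be longer than the gene. In FPKM, read pairs per kilobase of gene and per 1000000 gene counts, Cd14 was at 0.633 ± 0.346 at 0 h PCS and 7.77 ± 4.04 at 6 h PCS (SD, n = 3). Myd88 was at 2.87 ± 0.963 and 8.18 ± 2.29 FPKM (SD, n = 3). Both passed the filter used by the study for biological significance, a level and a difference above 2 FPKM. In every 0 h library Myd88 (2.11 to 3.95 FPKM) was above Cd14 (0.234 to 0.840 FPKM), while at 6 h PCS the order of the 2 genes differed between libraries.

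Tlr2 was at 5.89 FPKM or more in every 0 h library, with a mean bound of 9.21, so that per length it was above both Cd14 and Myd88 in each library at 0 h PCS. At 6 h PCS its bounds of 5.46, 9.70 and 8.23 FPKM stood beside 3.10, 10.2 and 9.96 FPKM for Cd14. Tlr2 was thus above Cd14 in 6 h replicate 1, and in the other 2 libraries the order cannot be given. The bounds for Ager (1.14 FPKM), Tlr4 (0.514 FPKM) and Tlr3 (0.332 FPKM), as means at 0 h PCS, rank only some of these genes against Cd14. Ager was above Cd14 in each 0 h library (at least 0.909 FPKM). Tlr4 (at least 0.442 FPKM) and Tlr3 (at least 0.355 FPKM) were above Cd14 (0.234 FPKM) in 0 h replicate 2, and in 0 h replicates 1 and 3 their order to Cd14 cannot be given. With the genes of the 4 receptors measured on different bounds, no order among the receptors themselves is given beyond this.

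The rest of the pathway was described with 6 gene lists, of which 45 genes carried a name here and were tested. Of the 45, 12 were upregulated DEGs and 0 downregulated. The number called fell to 6 without 0 h replicate 1 or without 0 h replicate 3 and to 7 without 6 h replicate 2, and it was 21 with DESeq2 and 19 with edgeR's exact test. Names were at hand for 741 of the 762 upregulated DEGs but for only 6373 of all 16810 tested genes. Among all 6373 tested genes with a name 11.6% were upregulated DEGs, so these counts lean upwards. The 2 other Toll-like receptors that could be named, Tlr7 and Tlr13, sense RNA in endosomes and were at 0.344 to 1.21 and 0.0432 to 1.64 CPM over all 6 libraries. Neither was called, neither had an unadjusted p under 0.05, and DESeq2 and edgeR's exact test called 0 of them. Of 3 tested receptor partners 0 were called by these 3 tests, and 0 had an unadjusted p under 0.05. Tril, a surface protein that assists TLR4 and TLR3, was even across libraries, at 17.5 to 20.1 CPM at 0 h PCS and 17.2 to 18.6 CPM at 6 h PCS (log2 fold change −0.09, SE 0.167, edgeR FDR = 0.802).

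Among 8 tested adaptors and kinases of the pathway, 2 were upregulated DEGs and 0 downregulated, with a median log2 fold change of 0.38 against 0.19 over all tested genes with a name, of which 11.6% were upregulated DEGs. Irak3, which encodes an inhibitory member of the IRAK kinase family, rose from 0.774, 0.437 and 1.08 CPM at 0 h PCS to 2.28, 3.87 and 3.49 CPM at 6 h PCS, a log2 fold change of 2.07 (SE 0.528, edgeR FDR = 0.0402). Ripk1, a kinase that joins TNF receptor and TRIF signals to NF-kB and cell death, rose from 28.9, 21.4 and 25.2 to 96.9, 65.3 and 90.2 CPM, a log2 fold change of 1.74 (SE 0.188, edgeR FDR = 0.000619). Peli1, a ubiquitin ligase acting on IRAK proteins, was at 44.2 to 52.1 CPM at 0 h PCS and 53.3 to 71.1 CPM at 6 h PCS, separated but not called (log2 fold change 0.39, edgeR FDR = 0.157). Tirap, the bridging adaptor that brings MyD88 to TLR2 and TLR4, averaged 8.56 ± 0.613 CPM at 0 h PCS against 10.4 ± 1.61 CPM (SD, n = 3) at 6 h PCS, with overlapping groups (log2 fold change 0.28, SE 0.227, edgeR FDR = 0.504).

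Of 15 tested genes that Toll-like receptor signals are known to induce, 10 were upregulated DEGs, 0 were downregulated, and in all 15 the 6 h libraries lay above the 0 h libraries, beside 11.6% upregulated DEGs among named genes and 15.3% of all tested genes separated upwards. The share separated upwards among named genes alone, which lean upwards, was not computed. Their median log2 fold change was 2.85, against the same 0.19. Other injury signals induce the same genes, so the list is not specific to these receptors. The 5 DEGs with the largest fitted changes were Tnf, Il6, Ptgs2, Rsad2 and Nfkbiz. Tnf, the inflammatory cytokine, had no count at 0 h PCS and reached 1.51 ± 0.801 CPM (SD, n = 3) by 6 h PCS, at least 12.3-fold higher against a floor of 3 counts per library, which covers counting error only. Il6, another cytokine gene, rose from 0.344, 0 and 0.129 CPM to 7.85, 8.41 and 54.2 CPM (log2 fold change 7.23, SE 1.42, edgeR FDR = 0.0444), with 6 h replicate 3 far above the others. Ptgs2, which encodes the prostaglandin synthase COX-2, rose from 4.09, 1.68 and 2.24 CPM to 59.1, 115 and 143 CPM (log2 fold change 5.31, SE 0.487, edgeR FDR = 0.00167). None of these cytokine and prostaglandin genes was above 5 CPM in any 0 h library. Rsad2, an interferon-induced antiviral gene, rose from 1.12, 0.182 and 1.21 to 2.62, 10.3 and 8.31 CPM (log2 fold change 3.09, SE 0.711, edgeR FDR = 0.0295). Nfkbiz, an inducible cofactor of NF-kB, rose from 33.1, 19.3 and 27.3 to 217, 147 and 222 CPM (log2 fold change 2.88, SE 0.236, edgeR FDR = 0.000214). Nfkbia, which encodes the inhibitor of NF-kB and had the highest mean CPM of the list at 6 h PCS but not at 0 h PCS, was measured at 122, 78.7 and 50.6 CPM at 0 h PCS and 244, 323 and 331 CPM at 6 h PCS (log2 fold change 1.84, SE 0.302, edgeR FDR = 0.00933).

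**Figure D4:**
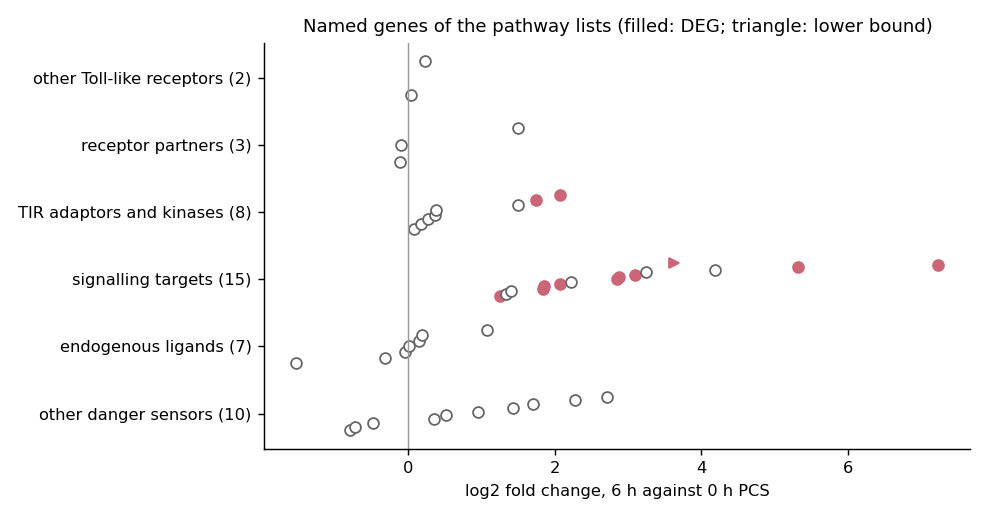
Log2 fold change at 6 h against 0 h PCS of the named and tested genes of the 6 pathway lists (number in parentheses), with filled points for DEGs. Tnf, with no count at 0 h PCS, is drawn as a triangle at its lower bound of 3.62, and the 12 DEGs lie in the lists of adaptors and kinases (2) and of signalling targets (10).

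Of 7 tested genes for endogenous ligands 0 were DEGs, with a median log2 fold change of 0.02. Over all tested genes with a name 11.6% were upregulated and 2.10% downregulated DEGs, and the median was 0.19. In a list of this size a count of 0 is not far from these shares. In this list 1 gene higher and 1 gene lower at 6 h PCS had an unadjusted p under 0.05, and DESeq2 and the exact test called 0. Anxa1, which encodes annexin A1, was the most abundant in CPM, at 761, 682 and 669 CPM at 0 h PCS and 424, 643 and 638 CPM at 6 h PCS (log2 fold change −0.31, SE 0.178, edgeR FDR = 0.337). Of 10 tested genes for other danger sensors 0 were DEGs, beside the same 11.6% and 2.10% among named genes. An unadjusted p under 0.05 was seen for 4 genes higher and 2 lower at 6 h PCS. DESeq2 and the exact test each called 3 upregulated DEGs. Over all tested genes these tests called 1058 and 1002 upregulated DEGs, against 762 in the quasi-likelihood test. Il33, the most abundant of this list in CPM, encodes an alarmin of the interleukin 1 family and not a receptor, so it does not stand for the sensors. It was at 32.8 to 61.1 CPM at 0 h PCS and 45.9 to 67.8 CPM at 6 h PCS (log2 fold change 0.36, edgeR FDR = 0.427).

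CD14 is also a marker of monocytes and macrophages, so leukocyte genes were read beside it. Of 22 leukocyte markers 11 were named and tested, and each of them had counts in every library. Their summed level was 24.5 to 49.0 CPM at 0 h PCS and 29.8 to 55.0 CPM at 6 h PCS, with overlapping groups, and their median log2 fold change was 0.16. One of the 11, Cd68, which encodes a lysosomal protein of macrophages, was an upregulated DEG, from 0.947, 0.619 and 1.51 CPM to 3.96, 4.68 and 9.34 CPM (log2 fold change 2.55, SE 0.499, edgeR FDR = 0.0129). Ptprc, which encodes the pan-leukocyte antigen CD45, was at 2.15, 0.838 and 0.129 CPM at 0 h PCS and 1.54, 3.24 and 2.83 CPM at 6 h PCS, a log2 fold change of 1.29 (SE 0.797, edgeR FDR = 0.374). A count of 1 DEG in 11 is close to the 11.6% among all named genes. The macrophage receptor gene Csf1r was at 6.95 to 11.7 CPM at 0 h PCS and 7.05 to 9.82 CPM at 6 h PCS (log2 fold change −0.11, edgeR FDR = 0.849). The part of leukocytes in the Cd14 counts was not tested.

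Markers of pigment cells, which line the iris and ciliary body, varied more than any other list examined, with sums of 209, 63.8 and 51.4 CPM at 0 h PCS and 77.4, 456 and 1965 CPM at 6 h PCS over 4 genes. The rank of the 6 h libraries was the same as for Cd14. Without 6 h replicate 3, the library with the highest sum, Cd14 had a log2 fold change of 3.65 (edgeR FDR = 0.0122) and Myd88 of 1.55 (edgeR FDR = 0.0169). In 6 h replicate 1, whose pigment sum was within the 0 h range, Cd14 was at 6.51 CPM and Myd88 at 19.9 CPM, both above every 0 h library. This library also had the lowest share of read pairs on genes, 33.6% against 39.5% to 41.2% in the others. Its most abundant gene held 23.3% of counts, against at most 17.7% in the others. Endothelial markers (5 genes) summed to 4.45 to 27.1 CPM at 0 h PCS and 20.8 to 37.6 CPM at 6 h PCS. The 4 corneal markers, which include Pax6, summed to 841 to 1156 CPM at 0 h PCS and were lower, 687 to 840 CPM, at 6 h PCS. Within them Aldh3a1 was separated downwards (log2 fold change −0.64, edgeR FDR = 0.0725). The corneal keratins Krt12 and Krt5 of the same list were separated upwards and were not DEGs, at 0.437 to 7.01 and 0.328 to 7.70 CPM at 0 h PCS and at 44.2 to 65.8 and 24.9 to 38.4 CPM at 6 h PCS. In these 3 lists 0 genes were DEGs in edgeR's quasi-likelihood test, beside 11.6% upregulated and 2.10% downregulated DEGs among named genes. DESeq2 and the exact test each called 2 endothelial and 2 corneal genes and 0 pigment genes. An unadjusted p under 0.05 was seen for 2 endothelial, 2 corneal and 0 pigment genes higher at 6 h PCS, and for 0, 2 and 0 genes lower. The most abundant pigment gene in CPM was Dct, with 56.9 ± 45.8 CPM at 0 h PCS against 496 ± 589 CPM (SD, n = 3) at 6 h PCS, and the most abundant endothelial gene was Kdr, at 12.3 ± 11.4 CPM and 20.8 ± 9.80 CPM (SD, n = 3). Over 9 lens epithelial markers the median log2 fold change was −0.51, against 0.19 over named genes, with 4 genes separated downwards and 3 upwards, where each direction held 15.3% of all tested genes. Prox1, Pdgfra, Sox2 and Mab21l1 were lower at 6 h PCS with an edgeR FDR of 0.0119 to 0.0316 but changed less than 2-fold, and 5 genes lower and 1 higher had an unadjusted p under 0.05. The 1 DEG of the list was Epha2, a receptor tyrosine kinase gene, which rose (log2 fold change 1.21, SE 0.235, edgeR FDR = 0.0134). With 9 genes, 1 upregulated DEG is close to the 11.6% among named genes. The transcription factor gene Prox1, with the highest mean over the 6 libraries taken as one set though not at 6 h PCS, had 644 ± 32.6 CPM at 0 h PCS against 383 ± 50.7 CPM (SD, n = 3) at 6 h PCS. The part of pigment, endothelial and corneal cells in the changes of Cd14 and Myd88 was not tested beyond these values.

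**Figure D5:**
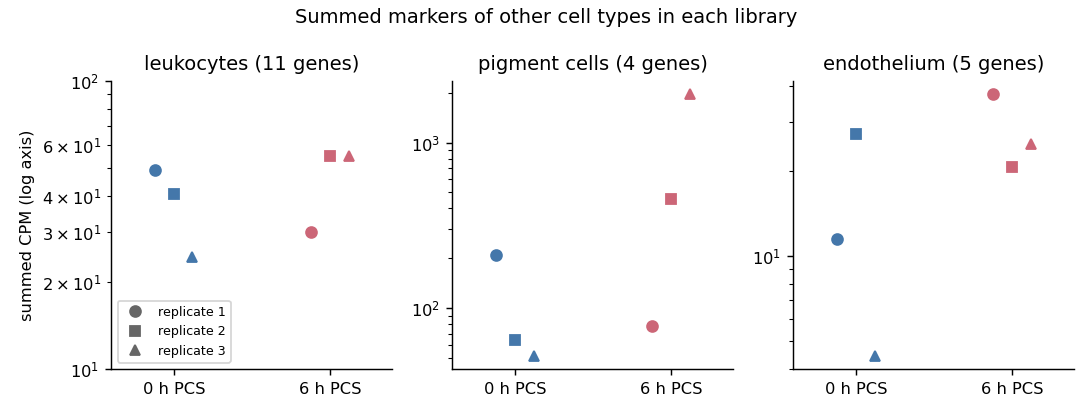
Summed TMM-normalized CPM (log axes) of the tested markers of leukocytes, pigment cells and endothelium in each library at 0 h PCS (blue) and 6 h PCS (red), with the marker shape for the replicate number. The leukocyte sums of the time points overlap (24.5 to 49.0 against 29.8 to 55.0 CPM), and the pigment sum spans 51.4 to 1965 CPM.

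Over the 6 libraries, the named genes whose log2 CPM followed each member most closely were found by Pearson's correlation, given as a description, since the libraries share their time points and many genes follow Cd14 or Myd88 (819 and 851 tested genes with r above 0.9). Nearest to Cd14 were Gm37060, Adm and Ehd1 (r = 0.999, 0.995 and 0.995). Adm, which encodes the peptide hormone adrenomedullin, rose by 3.28 on the log2 scale, and Ehd1, an endocytic recycling protein, by 1.18, and both were DEGs. Nearest to Myd88 were Ppp1r15a, a stress-induced phosphatase subunit, the ion channel gene Hcn4 and the transcription factor gene Klf6 (r = 0.999, 0.997 and 0.997). Nearest to Tlr4 were Ak3, Zfp467 and Gm5113 (r = 0.994, 0.992 and 0.988), and near to Ager were Rab4a and BC021767 (r = 0.995 and 0.993), none of them a DEG. Tlr2 had fewer close companions, 46 genes with r above 0.9, led by Bcl2l10, Gm43947 and Gm37370 (r = 0.986, 0.981 and 0.938). Tlr3 had 160, led by Krt90, Med7 and Suox (r = 0.983, 0.979 and 0.974).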

How the data were processed

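RNAseq was carried out by the authors on 6 libraries from wild type LECs. They aligned read pairs to GRCm38 using Hisat2, quantified them with HTSeq in union mode, and deposited raw counts per Ensembl gene. HTSeq summary rows, 58.8% to 66.4% of read pairs, were left out. Total RNA libraries were amplified by PCR, so counting intervals cover counting error only.

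Counts of all genes were analysed with edgeR 4.0.16 in R 4.3.3: TMM, filterByExpr by time point, robust dispersions and the quasi-likelihood F-test in its legacy form, adjusted by Benjamini-Hochberg over 16810 genes. Standard errors were the absolute log2 fold change over the square root of F, and 95% intervals used the t quantile of the fit. The fit was tested on simulated data. Ratios were compared by an exact permutation test. Alternatives were DESeq2 1.42.0, the exact test, edgeR 4's own method, other scalings and filters, a replicate block and leaving out each library.

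Supplementary sheets of the study name 5 of the 6 genes, and the name of Tlr2 came with the gene list. With Tlr2 included, 7024 counted genes had a name. Exon lengths came from the same sheets, and coordinates and gene lengths from RefSeq on GRCm38.p6. The members and lists were chosen with earlier results of these data known. Named genes were the 6 members and, per list, up to 5 DEGs with the largest change and the gene with the highest mean CPM, with the 3 genes most correlated with each member. Tlr7 falls outside this rule and was named as the other of the 2 tested genes of its list. One gene correlated with Ager and the lens fiber markers are not reported here. Pax6, Foxe3, Peli1, Tirap, Ptprc, Krt5, Krt12, Aldh3a1, Pdgfra, Sox2 and Mab21l1 were added after their values were seen. Planned ratios per exon length were replaced by ratios of counts, since no exon length of Tlr4 was at hand. Columns of fold changes and p-values in the study's sheets were not used.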

Additional observations from a re-analysis of the deposited data

How the results depend on the processing

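The 2 DEGs among the 6 genes, Cd14 and Myd88, were called in all 14 alternatives, with log2 fold changes of 3.50 to 4.26 and 1.51 to 2.14. Tlr4 was called as well without 6 h replicate 2, which made 3 members called, and in no other alternative. Ager was negative in all 14 (−1.20 to −0.66) and never called. The sign of Tlr2 reversed with library size scaling (−0.24) and in 3 fits without 1 library (range −0.18 to 0.22), and that of Tlr3 in 2 such fits (−0.52 to 0.18); the cause was not tested. With library size scaling the median log2 fold change of all tested genes was −0.32, against −0.0030 with TMM. The pathway lists gave 12 DEGs, 21 with DESeq2, 19 with edgeR's exact test, and 6 to 15 without 1 library, with 6 when 0 h replicate 1 or 0 h replicate 3 was left out, 7 without 6 h replicate 2 and 8 without 0 h replicate 2 or 6 h replicate 3. The log2 change of the Cd14 to Tlr4 ratio was 4.55 to 5.38 without 1 library. Over all genes there were 762 upregulated and 138 downregulated DEGs, and 572 and 627 with library size scaling. A replicate block gave 2 called members, 14 DEGs in the lists, and 888 upregulated and 162 downregulated DEGs over all genes. Whether the numbers pair the libraries could not be told. Deviations of same-numbered libraries correlated at 0.00365, 0.223 and 0.139, and those of differently numbered libraries at −0.191 to 0.0228. No ratio with other exon lengths was run. Cd14 had 10 to 31 counts per library at 0 h PCS, and with 3 pools per time point the intervals of Cd14, Ager and Tlr3 are wide.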
